A study of Mus musculus with 12 samples.

Results

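The genes described here are the ATP-binding cassette (ABC) genes of mouse gut epithelial cells, taken as every row of the deposited expression table whose symbol names a member of subfamilies ABCA to ABCG. The rule found 40 genes among 14244. They were compared between 5 wild-type (WT) libraries and 7 libraries of Chd8L+/- mice, all male, C57BL/6 and 8 weeks old. Chd8L+/- mice carry 1 deleted copy of the large isoform of Chd8 in every tissue, so the epithelium was not the sole tissue affected, and WT mice came from the same cross. Chd8 encodes a chromatin-remodelling protein, and the comparison asked which transcripts differ when 1 copy of its large isoform is lost. Poly(A) RNA from the epithelial cell fraction of the gut was sequenced, and no treatment was given.

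ABC proteins bind and hydrolyse ATP, and most use it to move a substrate across a membrane. In the gut, members of subfamilies ABCB, ABCC and ABCG return drugs, conjugated toxins and plant sterols to the lumen or pass conjugates to the blood. ABCA members move phospholipid and cholesterol, and most ABCD members feed fatty acids into peroxisomes. ABCE and ABCF proteins have the ATP-binding domains without a membrane domain and work on ribosomes. The table held 10 genes of subfamily A, 8 of B, 9 of C, 4 of D, 1 of E, 3 of F and 5 of G. A further 10 protein-coding genes of these subfamilies in the mouse annotation had no row under their symbols in the deposited table.

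Values are normalized counts, that is the reads of a gene scaled by the size factor of its library. The 12 libraries held 15691662 to 20761315 recovered reads. The 10 epithelial markers were present in every library, with summed normalized counts of 173224 to 304086 in WT and 167425 to 296289 in Chd8L+/-. Chd8 itself was at 953 ± 85.5 in WT (SD, n = 5) and 1297 ± 123 in Chd8L+/- (SD, n = 7), and every Chd8L+/- library lay above every WT library (log2 fold change 0.44, limma adjusted p 0.121). That count covers the whole gene and cannot tell the deleted allele from the intact one, so it does not check the genotype. The study itself reported weaker CHD8 protein staining in the gut of Chd8L+/- mice. By RT-PCR of their gut epithelial cells it found less of the deleted exons and more of an exon outside the deletion. On the first principal component, which held 39.7% of the variance, WT replicate 2 lay at 41.0, within the Chd8L+/- libraries at 0.26 to 42.7, while the other WT libraries lay between -67.5 and -26.2. ABC results that rest on this library are given with and without it, as are the medians of the cell marker lists. Other genes named singly and other gene lists are given with all 12 libraries only.

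The level of the 40 genes, as normalized counts divided by transcript length, spanned more than 3 orders of magnitude. Abcg5, 1 of the 2 subunits of the sterol pump that returns cholesterol and plant sterols to the lumen, had the highest mean at 2140.3 normalized counts per kb over the 12 libraries, followed by Abcb1a, which encodes the drug efflux pump P-glycoprotein, at 1553, the peroxisomal fatty acid importer Abcd3 at 1290.3 and Abcg8, the other sterol pump subunit, at 989. Abcf1, which acts in translation initiation, followed at 695, and Abcc2, an apical pump for glutathione and glucuronide conjugates, at 654. Abcc5, an exporter of cyclic nucleotides and glutathione conjugates, ranked 26 of 40 at 35.7, next to Abca2 at 35.8 and Abcb4 at 26.2. The lowest were Abcd2 at 0.693, Abcc9 at 0.503 and Abca8a at 0.466.

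**Figure D1:**
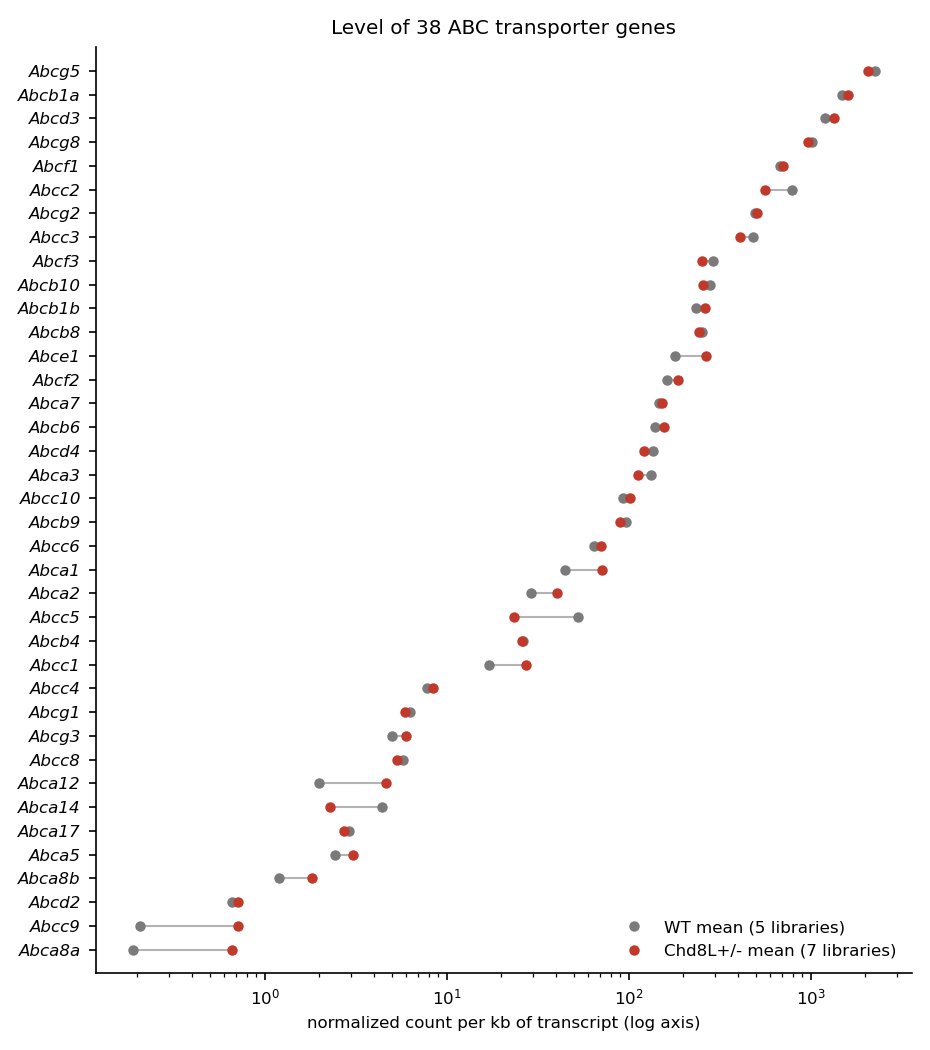
Mean normalized count per kb of transcript (log axis) of 38 ABC transporter genes in 5 WT (grey) and 7 Chd8L+/- libraries (red), ordered by the mean over all 12. Abcg5, at 2140.3 over the 12 libraries, heads the order, and the 2 means lie close together for most genes, with Abcc5 the widest gap, as a ratio, among genes above 10 per kb.

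A mean of at least 10 normalized counts was required for testing, which 37 of the 40 genes met. Abcc9, Abca8a and Abcd2 did not, and each was listed at 0 in some libraries. No member passed the adjusted threshold of 0.05 in limma with all 12 libraries, against 3 of 12808 genes in the whole table (0.0234%). With so few passing in the table, none passing in a short list, here and below, does not show that its genes are unchanged. At an unadjusted p of 0.05 or less, 4 of 37 members were found (10.8%), against 24.3% of all genes. The 1 member among these with a lower mean in Chd8L+/- was Abcc5, where 11.8% of all genes were found, and the 3 with a higher mean were Abcc1, Abce1 and Abca2, where 12.5% of all genes were found. The members' share was below that of the table. In no member were the 2 groups fully separated, against 0.515% of all genes.

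The differences were mostly small. The log2 fold change, Chd8L+/- minus WT on log2(normalized count + 1), was under 0.3 in size for 28 of 37 members. It was below 0 for 22 members and above 0 for 15, with a median of -0.10 beside 0.014 over all genes tested. That median was 0.033 without Chd8L+/- replicate 6, so its sign depended on that library. Medians by subfamily were 0.14 for ABCA, -0.11 for ABCB, -0.055 for ABCC, 0.060 for ABCF and -0.12 for ABCG. Several of these depended on single libraries. Without Chd8L+/- replicate 6 the ABCG median was 0.029, with all 5 genes above 0, the ABCB median was -0.029, the ABCC median -0.081 and the ABCA median 0.46, while the ABCA median was -0.017 without WT replicate 2 and -0.090 without Chd8L+/- replicate 5. Without WT replicate 2 the ABCC median was -0.025. Abcc5 was the 1 member at a log2 fold change of -1 or less, a level that 2.70% of all genes reached.

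**Figure D2:**
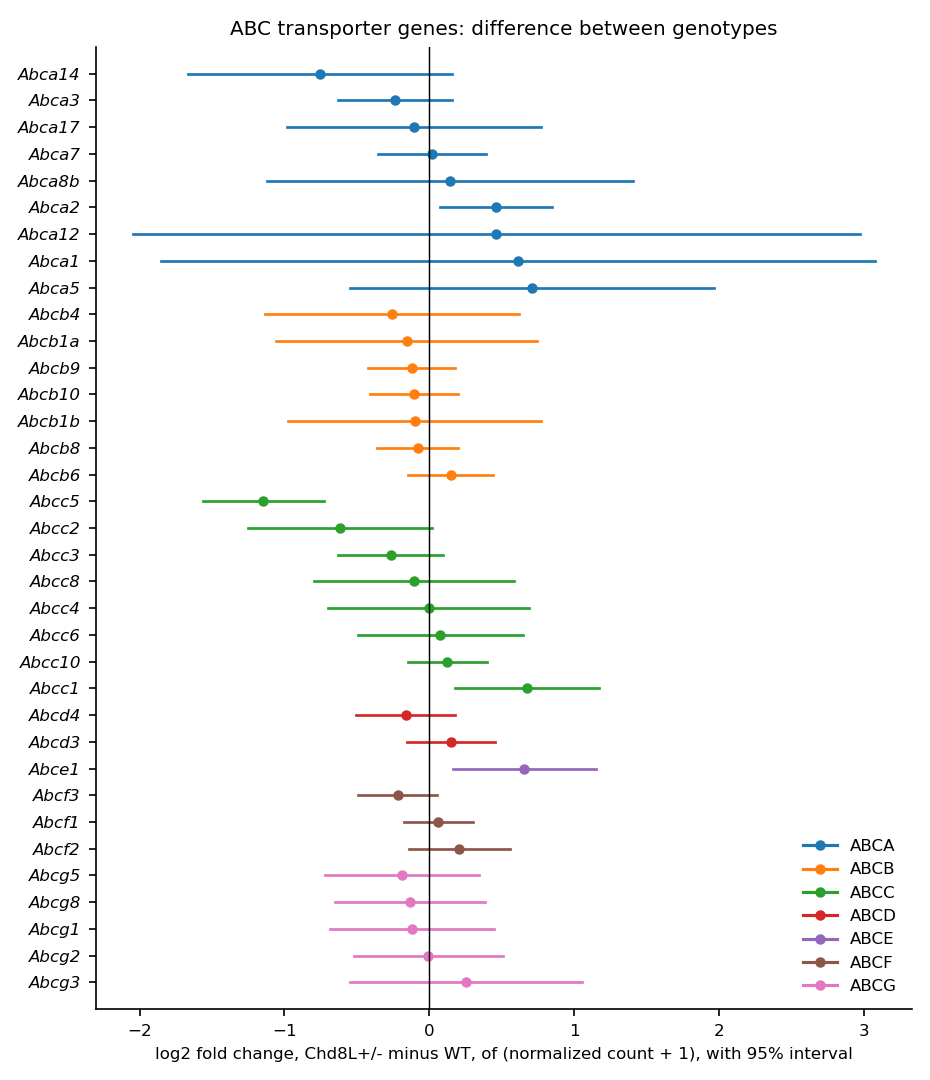
Log2 fold change, Chd8L+/- minus WT, with its 95% confidence interval from limma, for 35 of the 37 ABC genes tested, grouped and coloured by subfamily (5 WT and 7 Chd8L+/- libraries). The intervals of Abcc5 (-1.57 to -0.73), Abcc1, Abce1 and Abca2 lie to 1 side of 0, and those of Abca1 and Abca12 are the widest.

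Abcc5 (MRP5, ENSMUSG00000022822.16; GRCm38 chr16:20331303-20426394, minus strand) was the member with the smallest p and ranked 6 by p among 12808 genes. It was named for comparison with results of these data known. WT libraries 1 to 5 held 371, 198, 344, 261 and 359 normalized counts, and Chd8L+/- libraries 1 to 7 held 127, 118, 106, 199.98, 129.9, 120.2 and 158. Of the 7 Chd8L+/- libraries, 6 lay below the lowest WT library, and the groups touched only where Chd8L+/- replicate 4 at 199.98 exceeded WT replicate 2 at 198. Means were 306 ± 74.3 (SD, n = 5) and 137 ± 32.1 (SD, n = 7), which is 2.22-fold lower in Chd8L+/- on the scale of log2(normalized count + 1). The log2 fold change was -1.15 (SE 0.19), with an adjusted p of 0.0839 in limma, above the threshold. An exact permutation test, two-sided and run over each way to assign the 12 libraries to groups of 5 and 7, gave p = 0.00253, where 0.00126 is the smallest the design allows, and 0.198 after adjustment over all genes, a value that 1307 genes shared as the lowest in that test.

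The Abcc5 call depended on 1 library and on the model. Without WT replicate 2 the groups no longer overlapped and the log2 fold change was -1.29 with an adjusted p of 0.00256 in limma, in a fit that called 13.6% of all genes lower and 14.0% higher. A model with a block for the letter that opens each library's short name, whose meaning the labels do not give, had -1.17 with an adjusted p of 0.0434 where 3.52% of all genes passed, DESeq2 on recovered reads gave -1.16 with 4.66e-05 where 6.44% passed, and edgeR on recovered reads did not call it, with 0.0390% of genes passing. The adjusted p was between 1.03e-08 and 0.261 over the settings tried, and the log2 fold change was below 0 in each. Within libraries sharing a letter the difference on the log2 scale was -0.89 for A (2 WT, 2 Chd8L+/-), -1.23 for B (2 and 1) and -1.49 for C (1 and 3). Letter D held 1 Chd8L+/- library only.

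The 250 bases before the Abcc5 start are shown because this gene had the lowest log2 fold change of the 37 members tested. The sequence is RefSeq, GRCm38.p6, chr16:20426395-20426644, minus strand, written 5′ to 3′, with 64.0% G and C.

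Abcc5: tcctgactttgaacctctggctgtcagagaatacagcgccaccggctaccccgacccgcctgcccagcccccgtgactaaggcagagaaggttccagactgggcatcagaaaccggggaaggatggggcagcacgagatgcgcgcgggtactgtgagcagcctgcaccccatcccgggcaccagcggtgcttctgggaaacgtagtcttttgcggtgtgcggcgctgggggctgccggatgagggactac

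Such windows were found for 30 of the 40 members (37 windows, some genes having several starts), and 5 motifs were searched in them on both strands, no motif containing another. The GC box, GGGCGG, was in 20 of the 37 member windows (54.1%) and in 32.7% of all 32851 windows. The CCAAT box, spelled as its name, was in 10 (27.0%) and in 33.8% of all windows. The E-box, CACGTG, was in 4 (10.8%) and in 6.02%. The cyclic AMP response element, TGACGTCA, was in 2 (5.41%) and in 1.55%, and the TCF/LEF letters, CTTTGAT, were in 0 and in 3.21%. The 32851 windows include genes outside the deposited table, whereas the member windows do not, so these shares are not matched for expression. The Abcc5 window held none of the 5, so no base is capitalised, and Abcc1 was among the members with no window.

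Levels of cell type markers differed beside Abcc5, though no marker passed the adjusted threshold in limma with all 12 libraries. In that fit 0.0234% of all genes passed. At an unadjusted p of 0.05 or less in limma were 15 of 15 tuft markers and 15 of 19 crypt and cell cycle genes. So were 5 of 10 stroma and vessel, 3 of 15 mature enterocyte and 1 of 8 myeloid genes, against 24.3% of all genes. Goblet genes had 2 of 7 there, Paneth 1 of 6, enteroendocrine 2 of 10 and lymphocyte genes 0 of 12. In these bulk counts alone, fewer cells of a type and less RNA per cell cannot be told apart. For tuft cells, the study counted fewer DCLK1-stained cells in the Chd8L+/- small intestine, with no change in the colon. All 15 tuft cell markers had a lower mean in Chd8L+/-, with a median log2 fold change of -1.78, and their summed normalized counts ranged over 3928 to 37109 in WT and 2302 to 15759 in Chd8L+/-. Of these markers only Il25, a tuft cell cytokine, was listed at 0 in a library, Chd8L+/- replicate 4. WT replicate 2, lowest for Abcc5 in its group, was also lowest there at 3928, whereas Chd8L+/- replicate 6, highest of its group for tuft markers at 15759, held 120.2 for Abcc5. All 19 crypt and cell cycle genes had a higher mean in Chd8L+/- (median 0.93), with sums of 7174 to 27679 in WT, WT replicate 2 being highest at 27679, and 16666 to 31213 in Chd8L+/-. Of 15 mature enterocyte genes, 13 had a lower mean, with sums of 498203 to 1055145 in WT and 417679.7 to 933086 in Chd8L+/-. All 8 tested myeloid genes had a higher mean in Chd8L+/- (median 0.59), with sums of 1209.9 to 3191 in WT, highest in WT replicate 2, and 1767 to 3898 in Chd8L+/-. All 10 stroma and vessel genes that met the filter on low values, of 14, had a higher mean (median 1.79, or 1.32 with 9 of 10 higher without Chd8L+/- replicate 5). Sums of the 14 genes were 100.4 to 533 in WT, again highest in WT replicate 2, and 128 to 2802 in Chd8L+/-. The filter used the mean over all 12 libraries, so low genes that were high only in Chd8L+/- could pass it. The count of higher genes in this list may therefore be partly set by the filter. Medians were -0.12 for goblet, -0.24 for Paneth, -0.33 for enteroendocrine and -0.20 for T and B lymphocyte genes. The median for mature enterocyte genes was -0.2995, and -0.43 without WT replicate 2. Leaving out that library gave medians of -2.31 for tuft, 1.298 for crypt and cell cycle and 0.75 for myeloid genes. For stroma and vessel genes it gave 2.22, for goblet -0.16 and for Paneth -0.21. For enteroendocrine and lymphocyte genes it gave -0.34 and -0.11. The part of any of these cell types in the Abcc5 result was not tested.

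The 7 other tested ABCC genes had log2 fold changes between -0.61 and 0.68. Abcc1 (MRP1, ENSMUSG00000023088.17; GRCm38 chr16:14361558-14475737, plus strand), which exports glutathione conjugates including leukotrienes, had 109, 166, 72.6, 129 and 107 in WT libraries 1 to 5 and was from 105 to 248 with a median of 178 in the 7 Chd8L+/- libraries. Its mean was thus higher in Chd8L+/-, and the groups overlapped through WT replicate 2 at 166 and Chd8L+/- replicate 7 at 105. The log2 fold change was 0.68 (SE 0.23, adjusted p 0.127 in limma, exact permutation p 0.0240).

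Abcc2 (MRP2) had 8307, 5174, 5534, 5969 and 6598 in WT libraries 1 to 5 and was from 2116 to 7073 with a median of 4948 in Chd8L+/-. Its Chd8L+/- libraries were spread, with replicates 3, 5 and 6 at 2744, 2595 and 2116 far below every WT library and replicates 1 and 2 above all of them but WT replicate 1. The log2 fold change was -0.61 (SE 0.30, adjusted p 0.218). Abcc3 (MRP3), a basolateral exporter of glucuronides and bile salts, was from 1552 to 2751 with a median of 2001 in Chd8L+/- against 2002 to 2870.2 in WT, with a log2 fold change of -0.27 (SE 0.17, adjusted p 0.335).

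The remaining ABCC genes had log2 fold changes near 0. Abcc10 (MRP7), a drug exporter, was at 488 ± 36.7 and 538 ± 97.0 (SD, WT and Chd8L+/-), with 0.13 (95% interval -0.15 to 0.40). Abcc6, an ATP-releasing transporter known from a calcification disorder, was at 320.4 ± 85.4 and 349.5 ± 147, with 0.075 (-0.49 to 0.64). Abcc4 (MRP4), which like Abcc5 exports cyclic nucleotides, was at 44.4 ± 7.0 and 48.0 ± 19.7, with -0.0042 (-0.70 to 0.69). Abcc8, the sulfonylurea receptor of potassium channels, was at 28.3 ± 9.26 and 26.0 ± 8.55, with -0.10 (-0.80 to 0.59). The signs for Abcc4, Abcc6 and Abcc8 changed under some alternatives.

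**Figure D3:**
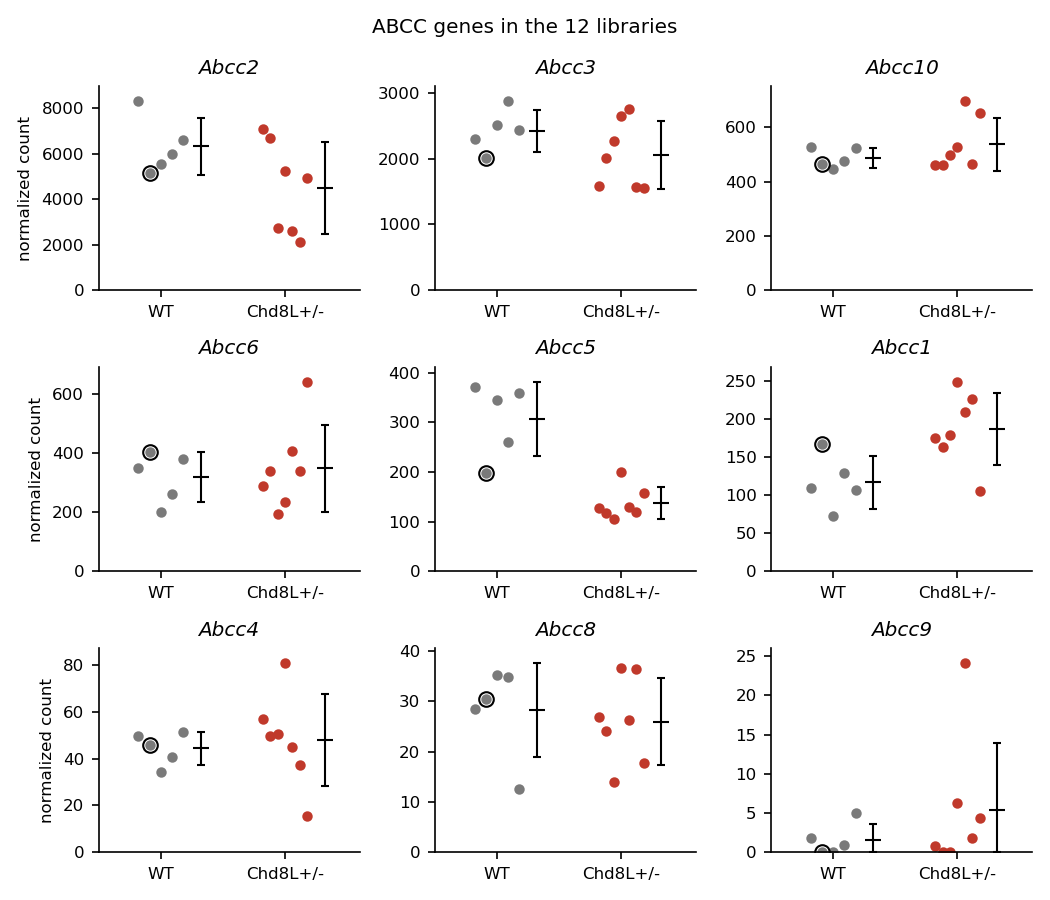
Normalized counts of the 9 ABCC genes in each library, WT in grey (n = 5, WT replicate 2 circled) and Chd8L+/- in red (n = 7), with mean and SD in black, the lower arm of the bar ending at 0 where the SD exceeds the mean. For Abcc5 the Chd8L+/- libraries span 106 to 199.98 and the WT libraries 198 to 371. The groups of the other genes overlap too, for Abcc1 with 5 of the 7 Chd8L+/- libraries above every WT library.

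Abcc5 was also set against each relative as a log2 ratio within each library. The ratio to Abcc10 went from -0.71 ± 0.34 in WT (SD, n = 5) to -1.98 ± 0.32 in Chd8L+/- (SD, n = 7), and every Chd8L+/- library lay below every WT library. The ratio to Abcc1 differed by -1.82 between genotypes (SE 0.33, limma adjusted p 2.32e-04, exact permutation p 0.00253). The ratio to Abcc4, the other cyclic nucleotide exporter, differed by -1.14 (SE 0.39, limma adjusted p 0.00942), with Chd8L+/- replicate 7 among the WT libraries. The ratio to Abcc2 differed by -0.53 (SE 0.29, limma adjusted p 0.0846, exact permutation p 0.135), which did not pass. The difference passed against 6 of the 7 relatives tested, the exception being Abcc2. Against all genes of the table it passed for 88.6%, so the count is near the background and says nothing particular to the relatives, and all these ratios share the values of Abcc5.

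**Figure D4:**
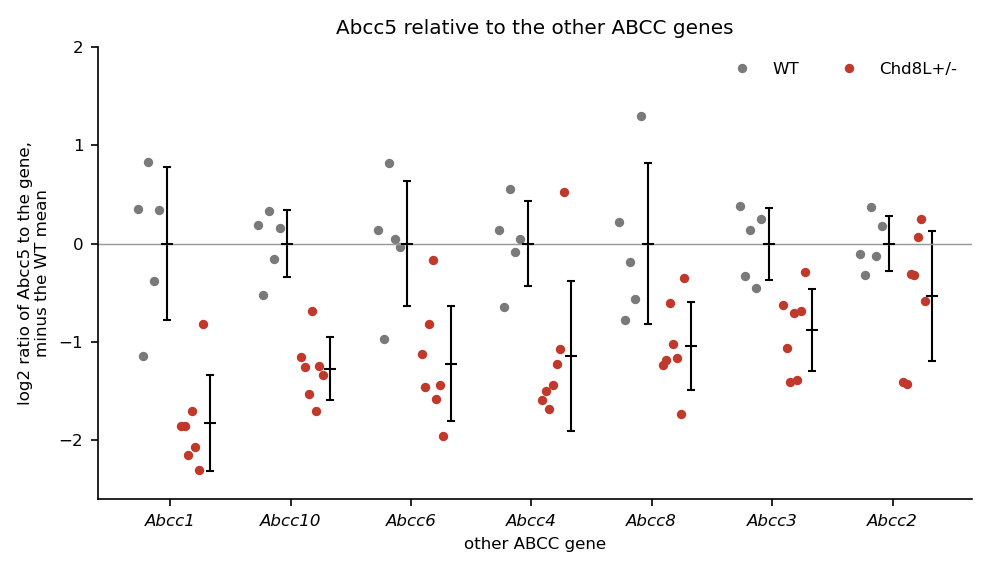
Log2 ratio of Abcc5 to each of the 7 other tested ABCC genes in each library, shifted so that the WT mean is 0, for WT (grey, n = 5) and Chd8L+/- (red, n = 7), with mean and SD in black. The Chd8L+/- means lie below 0 for all 7 genes, from -1.82 for Abcc1 to -0.53 for Abcc2.

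Abcc1, Abce1 and Abca2 joined Abcc5 once WT replicate 2 was left out. In that limma fit 4 of 37 members passed (10.8%, against 27.6% of all genes), with Abcc5 lower and Abcc1, Abce1 and Abca2 higher. Abcc1 had a log2 fold change of 0.81 (SE 0.23, adjusted p 0.0197, range over alternatives 0.00373 to 0.345). Abce1 had 0.89 (SE 0.17, adjusted p 0.00475, range 7.78e-05 to 0.347) and Abca2 had 0.55 (SE 0.18, adjusted p 0.0400, range 0.0199 to 0.372). With the letter as a block as well, 25.9% of all genes passed and Abcc5, Abcc1 and Abce1 were among them.

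Among the soluble, ribosome-acting members, Abce1 (ENSMUSG00000058355.8; GRCm38 chr8:79683462-79711740, minus strand), which splits ribosomes after termination, had the widest difference. WT libraries 1 to 5 held 732, 1224, 493, 443 and 518 normalized counts and Chd8L+/- libraries were from 768 to 1320.1 with a median of 1019. WT replicate 2 was within the Chd8L+/- range and above all but 1 of its libraries, while the other 4 WT libraries lay below every Chd8L+/- library. With all 12 libraries the log2 fold change was 0.65 (SE 0.23, adjusted p 0.131). The crypt and cell cycle sums were ordered alike at the top, with Chd8L+/- replicate 6 highest at 31213 and WT replicate 2 next at 27679, and their part in the Abce1 result was not tested.

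The 250 bases before the Abce1 start are shown because 2 of the motifs searched lie close to the start. The sequence is RefSeq, GRCm38.p6, chr8:79711741-79711990, minus strand, with a CCAAT box on the reverse strand and the cyclic AMP element in capitals.

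Abce1: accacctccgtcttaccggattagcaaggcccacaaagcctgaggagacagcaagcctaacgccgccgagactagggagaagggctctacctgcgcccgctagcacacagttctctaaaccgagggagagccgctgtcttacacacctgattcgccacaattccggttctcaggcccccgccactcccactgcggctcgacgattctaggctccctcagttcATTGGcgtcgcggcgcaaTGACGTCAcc

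The 3 ABCF genes had small differences. Abcf1 had 2139.6 ± 191 in WT and 2237 ± 270.3 in Chd8L+/- (SD), with a log2 fold change of 0.060 (SE 0.11) and the smallest spread of any member, 1.44-fold between the highest and lowest library. Abcf2 had 0.21 (SE 0.16, adjusted p 0.441) and Abcf3, which lies near Abcc5 on chromosome 16 (GRCm38 chr16:20548577-20561379), had -0.22 (SE 0.13, adjusted p 0.292). Of 10 tested partners in ribosome recycling and the Gcn2 pathway, none passed the adjusted threshold, and 2 with a lower and 1 with a higher mean were at an unadjusted p of 0.05 or less (30%, against 24.3% of all genes). Eif6, which keeps ribosomal subunits apart, was at 5718 ± 1543 in WT and 3790.1 ± 610.2 in Chd8L+/- (log2 fold change -0.56, adjusted p 0.125).

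The sterol and drug pumps of subfamily ABCG were among the most abundant and did not pass. Abcg5 (GRCm38 chr17:84658234-84683011, minus strand) had 6985, 4315, 4973, 5655 and 4587 in WT libraries 1 to 5 and was from 2012 to 6689 with a median of 5002 in Chd8L+/-, with a log2 fold change of -0.19 (SE 0.25). Abcg8 (GRCm38 chr17:84676302-84700333, plus strand), its partner in the sterol pump, had 4837, 2773, 3540.0, 4449 and 3172 in WT libraries and was from 1702 to 5593 with a median of 3506 in Chd8L+/-, with -0.13 (SE 0.24). Both genes were lowest in Chd8L+/- replicate 6 and next lowest in WT replicate 2. The genes overlap on opposite strands in the annotation and whether counting used strand is not given in the sources used here, so reads of the pair may not be fully separate. Without Chd8L+/- replicate 6 the log2 fold changes were 0.010 for Abcg5 and 0.029 for Abcg8.

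RefSeq places the start of Abcg5 and 1 of the 2 starts of Abcg8 back to back with 109 bases between them, and these bases are shown because the libraries ranked the pair in nearly the same order. They are chr17:84683012-84683120 of GRCm38.p6, plus strand, with 45.9% G and C and none of the 5 motifs.

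Abcg5-Abcg8: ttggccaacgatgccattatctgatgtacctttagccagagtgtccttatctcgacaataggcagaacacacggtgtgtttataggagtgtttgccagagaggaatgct

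Abcg2, the breast cancer resistance protein and a pump of the apical membrane, was at 2841 ± 731 in WT and 2884 ± 1107 in Chd8L+/- (SD), with Chd8L+/- replicate 5 highest at 5241. Of the 10 tested genes of cholesterol uptake and lipoproteins, none passed the adjusted threshold, 9 had a lower mean in Chd8L+/- and the median log2 fold change was -0.23. Npc2, a lysosomal cholesterol carrier, had -0.32 (adjusted p 0.171), the 1 of them at an unadjusted p of 0.05 or less (10%, against 24.3% of all genes). Of 13 sensors that switch on transporter genes, none passed, and 2 with a higher mean and 0 with a lower were at that p (15.4%, against the same 24.3%). Nr1h4, the bile acid receptor FXR, was at 416 ± 65.6 in WT and 829.9 ± 495 in Chd8L+/- (log2 fold change 0.83, adjusted p 0.145).

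In subfamily ABCB, 7 of 8 genes had a lower mean in Chd8L+/- on the log scale, none passed, and 3 neighbours on chromosome 5 differed most between mice. Abcb1a (GRCm38 chr5:8660077-8748575) had 8833, 8313, 6631, 7172 and 6170.4 in WT libraries 1 to 5 and 15496, 12919, 5516, 7997, 7669, 1707 and 4707 in Chd8L+/- libraries 1 to 7. The WT libraries were tight, and the Chd8L+/- libraries reached both above and below all of them. Abcb1b (GRCm38 chr5:8798147-8866315), its close copy, was from 265 to 2285 with a median of 964 in Chd8L+/-, and Abcb4 (GRCm38 chr5:8893717-8959231), the bile phospholipid transporter, was from 28.2 to 211 with a median of 95.3. For all 3 genes Chd8L+/- replicate 1 was highest, replicate 2 next, replicate 7 next to lowest and replicate 6 lowest. The SD on the log2 scale for Abcb1a was 1.06 in Chd8L+/-, 0.67 without replicate 6 and 0.22 in WT. Reads of Abcb1a and Abcb1b can be split between the copies in counting, so the values of each are uncertain. The sign of the Abcb1a log2 fold change, -0.16 (SE 0.42), turned without replicate 6, to 0.17, as did that of Abcb1b, to 0.20, and that of Abcb4, to 0.0095, so that 4 of the 8 ABCB genes then had a lower mean.

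The mitochondrial members Abcb6, Abcb8 and Abcb10 had small differences. Abcb10, which serves heme synthesis, had -0.10 (SE 0.14), Abcb8 had -0.079 (SE 0.13) and Abcb6, a porphyrin transporter, had 0.15 (SE 0.14). Of 16 iron-sulfur and heme genes, none passed the adjusted threshold, and 3 with a lower and 2 with a higher mean were at an unadjusted p of 0.05 or less (31.2%, against 24.3% of all genes). Isca1, an iron-sulfur assembly factor, had -0.42 (adjusted p 0.121).

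Subfamily ABCA held the most variable genes. Abca1, which loads cholesterol onto apolipoprotein A-I, had 968, 920.3, 104, 259.8 and 42.6 in WT libraries 1 to 5 and 971, 997, 1613, 781, 609.8, 9.10 and 177 in Chd8L+/- libraries 1 to 7, a 177-fold range. High and low libraries were present in both genotypes, and the log2 fold change was 0.61 with an SE of 1.15. Without Chd8L+/- replicate 6 it was 1.49 (SE 0.78). Abca12, a lipid transporter of skin, ranged from 0.910 in Chd8L+/- replicate 6 to 108 in replicate 4, and the 7 Chd8L+/- libraries were either at or under 2.59 or at or over 22.4. Abca2, a lipid transporter of endosomes and lysosomes, had 243, 297, 199, 210.3 and 216 in WT libraries and was from 224 to 511 with a median of 320.5 in Chd8L+/-, with all but Chd8L+/- replicate 5 above the 4 WT libraries other than replicate 2. With all 12 libraries its log2 fold change was 0.46 (SE 0.18, adjusted p 0.155).

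Abca7, a phospholipid transporter, had the highest level per kb of its subfamily at 151 and a log2 fold change of 0.017 (95% interval -0.36 to 0.39). Abca14 was low, with 23.1, 22.3, 19.2, 6.94 and 47.6 in WT libraries and from 4.55 to 15.5 with a median of 13.1 in Chd8L+/-, and its log2 fold change was -0.76 (SE 0.42, adjusted p 0.280). Abca5, a lysosomal lipid transporter, had 0.71 (SE 0.59), which rested on WT replicate 5 at 1.25, the other WT libraries holding 13.3 to 35.7. Without that library it was 0.024.

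**Figure D5:**
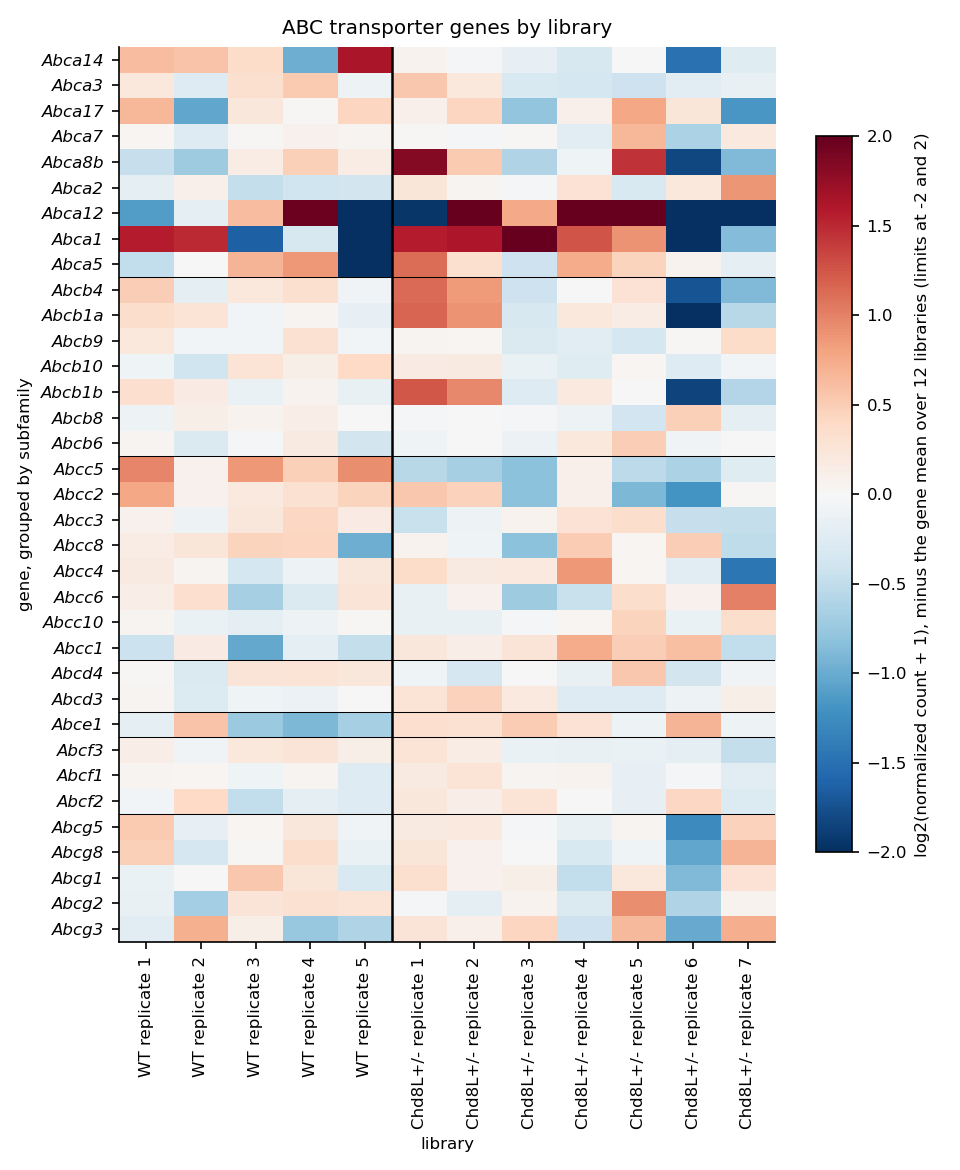
Log2(normalized count + 1) minus the gene mean over the 12 libraries for 35 of the 37 tested ABC genes, grouped by subfamily, with WT libraries left and Chd8L+/- libraries right of the vertical line and colours limited at -2 and 2. Chd8L+/- replicate 6 is lowest of the 12 for 14 genes, among them Abcb1a, Abcb1b, Abcb4, Abcg5 and Abcg8, and Abca1 and Abca12 span the whole colour range.

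Chd8L+/- replicate 6 was the lowest library for 14 of the 37 tested members, more than any other library, the next being Chd8L+/- replicate 5 with 5. It was also lowest for mature enterocyte genes at 417679.7 and for distal small intestine genes at 3647, where the other 11 libraries held 8592 to 53187, and highest for crypt and cell cycle genes at 31213. The part of these cell types and gut segments in the ABC values of this library was not tested.

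Of the ABCD genes, none passed in limma with all 12 libraries, where 0.0234% of all genes did. Abcd3 was at 4202 ± 363 in WT and 4716 ± 905 in Chd8L+/- (SD), with a log2 fold change of 0.15 (SE 0.14). Abcd4, which acts in lysosomal release of cobalamin, had -0.16 (SE 0.16). Of 16 peroxisome genes, none passed the adjusted threshold, 13 had a lower mean in Chd8L+/- and the median log2 fold change was -0.14. An unadjusted p of 0.05 or less was found for 5 with a lower and 1 with a higher mean (37.5%, against 24.3% of all genes, of which 11.8% were lower). Phyh, which starts the breakdown of phytanic acid, was at 5692 ± 1285 and 3813 ± 998 (log2 fold change -0.59, adjusted p 0.135).

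Enzymes that make the conjugates exported by ABCC proteins did not pass either. Of 17 glutathione and conjugation genes, 4 with a lower and 1 with a higher mean were at an unadjusted p of 0.05 or less (29.4%, against 24.3% of all genes). Gsto1, an omega-class glutathione transferase, was at 17609 ± 7683 in WT and 8199 ± 2261 in Chd8L+/- (log2 fold change -1.02, adjusted p 0.121), and Gss, the last enzyme of glutathione synthesis, had -0.57 (adjusted p 0.121). Mgst1, a microsomal glutathione transferase, had 0.74 (adjusted p 0.154). Of 10 tested cyclic nucleotide genes, 2 had a lower and 1 a higher mean at that p (30%, against the same 24.3%), and none passed after adjustment. Guca2b, the uroguanylin precursor, had -0.73, the cyclic GMP-dependent kinase gene Prkg2 had -0.34 and the adenylyl cyclase gene Adcy9 had 0.66 (adjusted p 0.143, 0.134 and 0.121).

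Cftr, Tap1 and Tap2 belong to the family under other symbols and were outside the rule. Cftr, the chloride channel of the ABCC subfamily, was at 1389 ± 617 in WT and 2067 ± 174 in Chd8L+/- (SD), with a log2 fold change of 0.68 (adjusted p 0.125). The peptide transporter genes Tap1 and Tap2 had 0.20 and -0.10. Among 9 genes of peptide loading, none passed, and 1 with a lower and 3 with a higher mean were at an unadjusted p of 0.05 or less (44.4%, against 24.3% of all genes, of which 12.5% were higher). B2m, the light chain of class I molecules, had -0.51 and the chaperone Canx had 0.46 (adjusted p 0.186 and 0.148).

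The members too low to test had few reads in most libraries. Abcc9, the sulfonylurea receptor of vessel and muscle potassium channels, was at 24.1 in Chd8L+/- replicate 5 and at 6.28 or less in the other 11 libraries, 4 of them at 0. Abca8a was at 13.6 in that library and at 5.46 or less elsewhere, 3 libraries being at 0. Abca8b, which passed the filter and is a close copy of Abca8a, was at 26.2 there and at 34.5 in Chd8L+/- replicate 1. Chd8L+/- replicate 5 also had the highest sum of the 14 stroma and vessel genes, 2802, against 128 to 1094 in the other Chd8L+/- libraries and 100.4 to 533 in WT, with Col1a2, Col3a1, Lum or Pdgfra at 0 in 4 libraries, and the part of these cells in the 3 values was not tested. Abcd2 was at 10.5 or less throughout and at 0 in 4 libraries.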

How the data were processed

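Epithelial cells of the gut were taken from 5 WT and 7 Chd8L+/- mice, and poly(A) RNA was sequenced in single 75-base reads. Per the study's methods, reads were mapped to mm10 with Tophat2, and the labels' processing notes name DESeq2 (no version) and mm10. The counting program, annotation, strand setting and gene filter are not given in the sources used here. The authors deposited 1 table of normalized counts, a signal that equals reads per gene divided by a library size factor. Dividing each value by the smallest step of its library gave whole reads (largest deviation 0.000147 reads, 100% within 0.01). No column of per-sample values belonged to another sample. Total reads were 15691662 to 20761315 per library, and counting precision follows from these. The p-values measure the spread between libraries, each from 1 mouse. The study describes the mice as littermates, but the labels do not give the litter of each.

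Groups were taken from the labels. Log2(normalized count + 1) of the 12808 genes with a mean of at least 10 was fitted with limma 3.58.1 in R 4.3.3 (lmFit, eBayes with trend, no covariate), with Benjamini-Hochberg adjustment over all genes and a threshold of 0.05, rather than the count test of the study because the deposited values are normalized. An exact two-sided permutation test over the 792 assignments of libraries was run for every gene. edgeR 4.0.16 and DESeq2 1.42.0 were run on recovered reads as alternatives, beside other pseudocounts, filters, scalings, blocks and fits without each library. Scripts were tested on simulated data. Transcript lengths and positions came from GENCODE M21 (GRCm38, the mm10 build), to which 14050 symbols matched directly and 92 through a synonym, and upstream sequences from RefSeq GRCm38.p6.

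The genes and lists were chosen with earlier results of these data known. The genes named by rule were Chd8, Abcc5, every other tested ABCC gene, the 5 members with the smallest p in each direction and the member of each subfamily with the highest level per kb. Abca1, Abca12, Abca8a, Abca8b, Abcb1b, Abcb4, Abcb6, Abcb8, Abcb10, Abcc9, Abcd2, Abcd4, Abcg2, Abcg8 and the partner genes named singly were chosen after their values were seen. Values of 2 member genes and 1 partner gene are not reported here singly, though they enter every count.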

Additional observations from a re-analysis of the deposited data

Results flagged for a closer look

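In 4 of 42 groups tested, 1 library lay far from the rest of its group on the log2(normalized count + 1) scale (Dixon's test at the 95% level), and chance flags about 1 group in 20. Abca14 in Chd8L+/- was lowest in Chd8L+/- replicate 6, at 2.47 on that scale, or 4.55 normalized counts, where the other Chd8L+/- libraries held 11.5 to 15.5. Abcg5 in Chd8L+/- was lowest in the same library, at 10.98 or 2012 normalized counts, against 4380 to 6689 in the others. Abca7 in WT was lowest in WT replicate 2, at 9.69 or 825 normalized counts, against 1001 to 1054. Abcc8 in WT was lowest in WT replicate 5, at 3.76 or 12.5 normalized counts, against 28.4 to 35.3. Without these libraries the log2 fold changes of Abca14, Abcg5, Abca7 and Abcc8 were -0.56, 0.010, -0.045 and -0.36.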

How the results depend on the processing

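Every alternative kept the Abcc5 log2 fold change below 0, while the number of genes that passed changed with WT replicate 2 and with the model. The count over all genes was 3 with limma, 0 with the replicate block, 451 with the letter block, 0 with the length and GC trend removed, 5 with edgeR and 811 with DESeq2, and ranged from 0 to 3533 when single libraries were left out, 3533 without WT replicate 2 and 0 to 8 without any other. Without WT replicate 2 it was 3369 with edgeR, 4112 with DESeq2 and 3314 with the letter block, which were added after seeing the data. Members passing numbered 0 in the main fit, 2 with the letter block, 1 with DESeq2, 0 to 4 when single libraries were left out, and 4 in each of the 3 added fits. Abcc5 passed with the letter block (-1.17), DESeq2 (-1.16) and without WT replicate 2 (-1.29, and -1.27 with edgeR, -1.29 with DESeq2 and -1.36 with the letter block), and ranged from -1.29 to -1.07 when single libraries were left out. Abcc5 against its relatives passed in limma for 5 to 7 of 7 when single libraries were left out. The main fit had 6 of 7, beside 88.6% of all genes. These ratios were not fitted with edgeR or DESeq2.

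The replicate numbers shared by the genotypes did not pair the libraries: same-numbered libraries correlated at 0.19, -0.34, -0.13, -0.17 and -0.23 after removing group means, and only replicate 1 matched its own number best. With the replicate block no gene passed, no member passed, and Abcc5 was at -1.16 (adjusted p 0.211).

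The sign turned under at least 1 alternative for 16 of 37 members. Among them, Abca1 (0.61) reached -0.023, Abca12 (0.46) -0.12, Abcb4 (-0.26) 0.22 and Abcb1b (-0.10) 0.37. Abca7 was at -0.096 with the length and GC trend removed, -6.79e-04 with DESeq2 without WT replicate 2, and -0.093 to 0.12 with single libraries left out. Abcb1a was at 0.054 with quantile normalization, 0.33 with the replicate block, 0.12 with edgeR, 0.11 with DESeq2, 0.18 and 0.15 with edgeR and DESeq2 without WT replicate 2, and -0.36 to 0.17 with single libraries left out. Abcc4 was at 0.0085 with a pseudocount of 5, 0.0052 with TMM scaling, 0.33 with the replicate block, 0.31 with the letter block, 0.13 with edgeR, 0.12 with DESeq2, 0.15, 0.13 and 0.27 with edgeR, DESeq2 and the letter block without WT replicate 2, and -0.15 to 0.24 with single libraries left out. Abcc6 was at -0.13 with the replicate block, -0.030 with the letter block, -0.0023 with the length and GC trend removed, and -0.087 to 0.20 with single libraries left out. Abcg5 was at 0.037 with quantile normalization and -0.28 to 0.010 with single libraries left out, and Abcc8 ranged from -0.36 to 0.025. The median over members was 0.0099 with quantile normalization, 0.043 with edgeR, 0.061 with DESeq2 and 0.10 with the replicate block. Genes with a library under 10, such as Abca14 and Abca5, have no value under the filter of at least 10 in every library. The cause of these changes was not tested.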
